A study of Homo sapiens with 24 samples.

Results

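The liver X receptors (LXRs) and their target genes were followed in human melanoma cells in which SREBF1 was depleted. The set held 8 genes of the 58735 in the count files, each found by its symbol and Ensembl identifier. They were the receptors NR1H2 (LXRβ) and NR1H3 (LXRα), the sterol exporters ABCA1 and ABCG1, the lipid carrier APOE, and the targets MYLIP, LPCAT3 and SMPDL3A. LXRs are nuclear receptors that bind DNA with a retinoid X receptor (RXR) as partner and are switched on by oxysterols, the oxidized forms of cholesterol. Cells loaded with sterol use them to raise cholesterol export, to lower its uptake and to remodel phospholipids. SREBF1 encodes SREBP1, a transcription factor of fatty acid synthesis genes, and is itself a classic LXR target in liver. In melanoma, LXR and apolipoprotein E have been studied as restraints on invasion and metastasis.

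HT-144, an established cell line from a melanoma metastasis, was transfected for 3 days in RPMI-1640 with insulin, transferrin and selenium. The SREBF1-targeting groups were a pool of small interfering RNAs (siSREBF1, 50 nM) and 2 antisense oligonucleotides (ASO-SREBF1-S1 and ASO-SREBF1-S4, each 5 nM). The controls were a mock transfection, for which the labels give no reagent and no dose, a non-targeting siRNA (siNegative, 50 nM) and a non-targeting oligonucleotide (ASO-Neg, 5 nM). Polyadenylated RNA was sequenced on its own strand as read pairs of 75 bp. Each group was 1 library run on 4 lanes, so 3 targeting libraries stand against 3 control libraries, and p-values measure the spread between libraries that received different reagents. Mock stands only among the controls, so SREBF1 depletion and the presence of a reagent are partly mixed. No group had a second RNA sample, and in bulk RNA fewer cells of a type cannot be told apart from less RNA per cell.

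The libraries held 12916478 to 47900277 gene counts, with ASO-SREBF1-S1 the deepest. Levels are counts scaled to library size by TMM (CPM), and 3 counts were worth 0.0626 to 0.2323 CPM. SREBF1 itself stood at 55.0 CPM after siSREBF1, 77.05 after ASO-SREBF1-S1 and 70.41 after ASO-SREBF1-S4, against 231.9 after mock, 249.7 after siNegative and 217.4 after ASO-Neg. It fell by 1.78 on the log2 scale (SE 0.12, edgeR adjusted p = 0.00164), and by 1.82 with an adjusted p of 0.112 when reagent chemistry (none, siRNA, oligonucleotide) was a term in the fit. All 8 melanoma markers checked (SOX10, MITF, PMEL, MLANA, TYR, DCT, S100B and PAX3) averaged over 1 CPM and summed to 4070 to 5440 CPM in targeting libraries and 4720 to 6160 CPM in control libraries. Macrophage and immune markers, which matter here because macrophages are a major site of LXR activity, summed to 0.83 to 2.03 CPM in targeting libraries and 0.942 to 1.06 CPM in control libraries. None of those 8 averaged over 1 CPM, and MS4A1 was at 0 in every library. Fibroblast markers summed to 636 to 940 CPM against 671 to 885 CPM in controls, keratinocyte markers to 22.8 to 29.1 CPM against 22.7 to 24.2 CPM, and endothelial markers to 37.8 to 57.3 CPM against 38.4 to 42.8 CPM. Each of these sums came mostly from 1 gene. Averaged over the 6 libraries, COL1A2 stood at 683 CPM and LUM at 70.9 CPM, with COL1A1 at 1.02, PDGFRA at 1.24, DCN at 1.83 and PDGFRB at 6.60 CPM. KRT10 stood at 24.4 CPM, with KRT14 at 0.576, KRT5 at 0.151 and KRT1 at 0 CPM. KDR stood at 40.8 CPM, with VWF at 1.86, PECAM1 at 0.208 and CDH5 at 0.0741 CPM.

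Both receptors and all targets except ABCG1 had at least 96 counts in every library. Scaled per kilobase of exon (RPKM) and averaged over the 6 libraries, the levels ran from APOE at 39.7, through NR1H2 at 13.2, LPCAT3 at 10.1, MYLIP at 5.40, SMPDL3A at 3.74, NR1H3 at 2.19 and ABCA1 at 1.36, to ABCG1 at 0.0881. The RPKM ranges over libraries overlapped for 3 neighbours in that order: NR1H2 with LPCAT3, MYLIP with SMPDL3A, and NR1H3 with ABCA1. LXRβ was the main receptor RNA: NR1H2 had 4.58 to 6.96 times the RPKM of NR1H3 in a library. ABCG1 was at the edge of detection, with 3 to 18 counts a library.

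None of the 7 members that passed the filter on low counts passed the test of targeting against control libraries (edgeR quasi-likelihood, Benjamini-Hochberg over 15123 genes), and 9 of all genes did, 0.0595%. At an unadjusted p under 0.05 there were 3 members, ABCA1 higher and NR1H2 and LPCAT3 lower, where 10.2% of all genes passed. The same 3 members were those whose sides did not overlap, against 17.4% of all genes. The median log2 ratio of the 7 members was -0.12, and that of all genes was 0.006. Of the 7, 3 had ratios above 0 and 4 below.

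**Figure D1:**
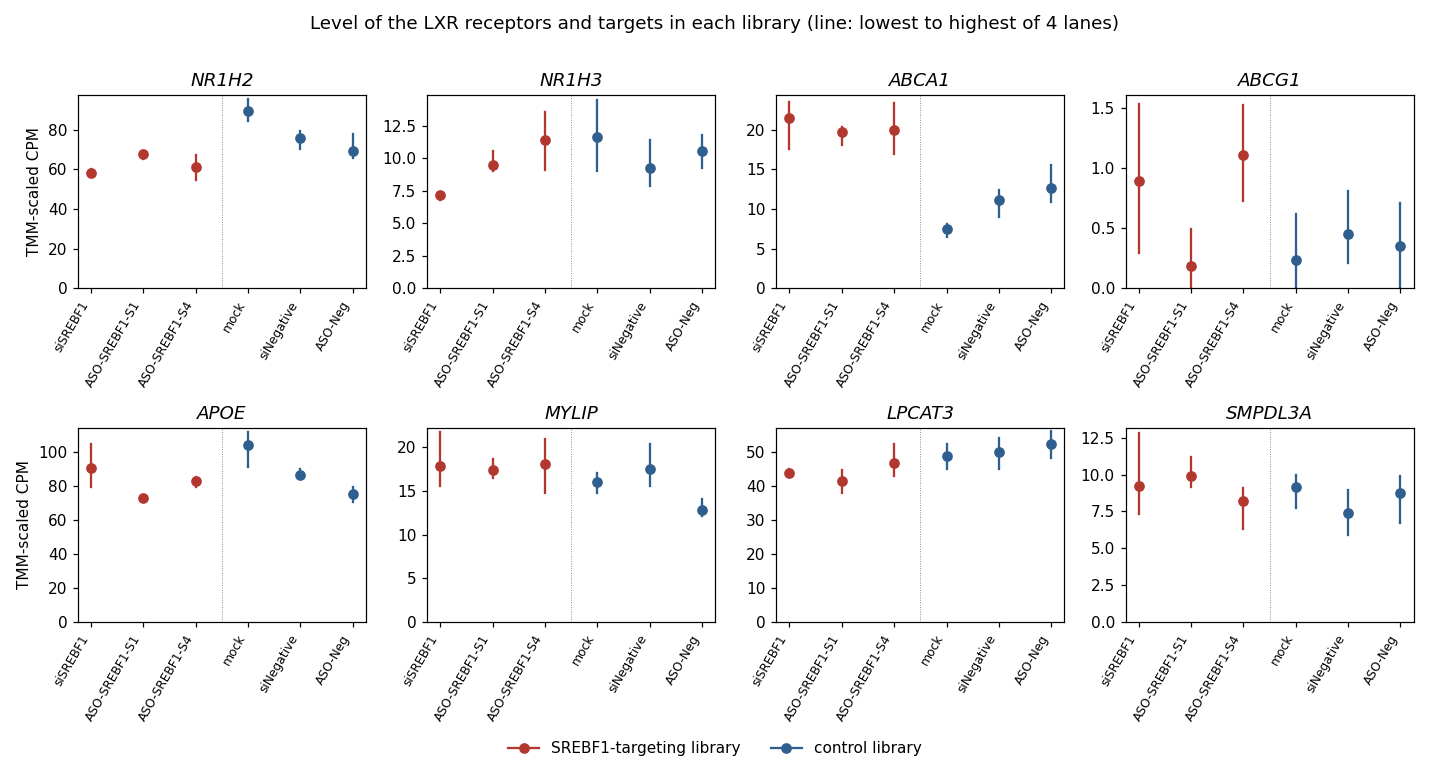
TMM-scaled CPM of each of the 8 genes (linear axis from 0) in the 3 SREBF1-targeting libraries, left in red, and the 3 control libraries, right in blue. Points are the summed library and vertical lines run from the lowest to the highest of its 4 lanes, which are technical. ABCA1 lies above every control in all 3 targeting libraries (19.68 to 21.42 CPM against 7.534 to 12.66 CPM), and NR1H2 and LPCAT3 lie below every control.

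NR1H2 (ENSG00000131408, GRCh38 chr19:50329653-50383388, plus strand), the LXR found in nearly all tissues, was lower in targeting libraries but did not pass the test. It stood at 58.36 CPM after siSREBF1, 67.64 after ASO-SREBF1-S1 and 61.42 after ASO-SREBF1-S4, against 89.38 after mock, 75.72 after siNegative and 69.35 after ASO-Neg. The sides did not overlap, yet ASO-SREBF1-S1 and ASO-Neg lay next to each other and did not differ beyond counting error. The mean was 62.48 ± 4.73 CPM in targeting libraries and 78.15 ± 10.2 CPM in controls (SD, n = 3 each). The log2 ratio was -0.32 (SE 0.102, 95% interval -0.55 to -0.09, edgeR adjusted p = 0.339). Mock was the highest library, and the non-targeting reagents were below it too: the log2 ratio to mock was -0.24 (-0.35 to -0.13) for siNegative and -0.37 (-0.48 to -0.25) for ASO-Neg, where intervals cover counting error only. Without mock the log2 ratio of targeting to control libraries was -0.22.

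NR1H3 (ENSG00000025434, chr11:47248300-47269033, plus strand), the LXR that is high in liver, fat and macrophages, showed no separation of the sides. It stood at 7.165 CPM after siSREBF1, 9.479 after ASO-SREBF1-S1 and 11.39 after ASO-SREBF1-S4, against 11.69 after mock, 9.268 after siNegative and 10.60 after ASO-Neg. Only the step down to siSREBF1, the lowest library, was beyond counting error among neighbours in that order. The log2 ratio of targeting to control libraries was -0.16 (SE 0.172, edgeR adjusted p = 0.798). Between siSREBF1 and the pair of SREBF1 oligonucleotides it was -0.53 (SE 0.215, edgeR adjusted p = 0.522), a fit in which siSREBF1 is a lone library assumed to vary like the others. In that fit 24 of 16297 genes passed, 0.147%, and no member did. Exons of NR1H3 overlap those of ACP2 on the opposite strand, and 16.1% of the NR1H3 counts of both strands lay on the other strand, that of ACP2.

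ABCA1 (ENSG00000165029, chr9:104781006-104928155, minus strand), the transporter that hands cholesterol and phospholipid to lipid-poor apolipoproteins, had the largest log2 ratio of targeting to control libraries among the 7 tested members. It stood at 21.42 CPM (287 counts) after siSREBF1, 19.68 CPM (949 counts) after ASO-SREBF1-S1 and 19.94 CPM (324 counts) after ASO-SREBF1-S4. In the controls it stood at 7.534 CPM (96 counts) after mock, 11.09 CPM (219 counts) after siNegative and 12.66 CPM (215 counts) after ASO-Neg. The 3 targeting libraries were within counting error of each other and all above the controls, and mock was the lowest library.

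The promoter of ABCA1 is shown because it holds the only DR4 match, the usual form of an LXR element, among the members' promoters. LXR with RXR binds a direct repeat of the hexamer AGGTCA with 4 bases between (DR4). The 300 bases from RefSeq (GRCh38.p14, chr9:104928106-104928405, minus strand, 250 before the start and 50 after it) are printed with the match in capitals.
ABCA1 promoter: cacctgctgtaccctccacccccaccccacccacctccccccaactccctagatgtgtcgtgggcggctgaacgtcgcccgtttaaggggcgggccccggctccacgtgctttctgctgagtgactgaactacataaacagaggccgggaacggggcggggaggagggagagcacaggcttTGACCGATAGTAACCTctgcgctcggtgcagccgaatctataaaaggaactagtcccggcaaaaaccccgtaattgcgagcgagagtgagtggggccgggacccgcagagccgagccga
ABCA1 match, read on the other strand: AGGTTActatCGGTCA
In the second line the capitals are the hexamers. The match starts 69 bases before the start of transcription (chr9:104928209-104928224) and has 2 mismatches of its 12 fixed bases, C5T and A11C, counted from 1 at the 5′ end of the motif.

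Searched on both strands with at most 2 mismatches, the DR4 motif was in 822 of the 35116 promoters of the table, 2.34%. Promoters were at hand for 6 of the 8 members, 11 in all, for NR1H2, NR1H3, ABCA1, APOE, MYLIP and LPCAT3, and ABCA1 alone matched. With 1 mismatch 0.205% of promoters matched and no member did. With 3 mismatches 18.6% matched, and ABCA1 was again the only member. The half-site AGGTCA, which is part of the DR4 motif, was in 13.8% of promoters and, among members, in NR1H3 at 140 bases before one of its starts. TCACNCCAC, the sterol element read by SREBPs, was in 1.13% of promoters and in none of the members'. The search had been checked on a planted site with the same 2 substitutions as the ABCA1 match, C5T and A11C. The match of ABCA1 at 2 mismatches is thus a description and not an outcome of the search. These are matches of letters in a 300-base window and show no binding.

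ABCA1 averaged 20.35 ± 0.937 CPM in targeting libraries and 10.43 ± 2.63 CPM in control libraries (SD, n = 3 each), a ratio of 1.95. The log2 ratio was 0.95 (SE 0.163, 95% interval 0.58 to 1.32, unadjusted p = 0.000247), rank 37 of 15123 genes by p, and the edgeR adjusted p of 0.101 did not pass. DESeq2 passed it (adjusted p = 4.89e-05), as did edgeR without the filter on low counts (7.5e-10) and edgeR without ASO-SREBF1-S1 (0.0467). In the same order these settings passed 170 of 15123, 509 of 31378 and 103 of 15310 genes, against 9 of 15123 in the main fit. With each other library left out ABCA1 did not pass, with log2 ratios of 0.77 without mock to 1.11 without ASO-Neg. Over all 14 alternatives its adjusted p ran from 7.5e-10 to 0.587. The pair of SREBF1 oligonucleotides alone gave 0.91 over the controls (SE 0.178, edgeR adjusted p = 0.119), a fit in which 7 of 16297 genes passed, 0.043%, and no member did.

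Against its own negative reagent, ABCA1 was higher with each of the 3 SREBF1 reagents. The log2 ratio was 0.94 for siSREBF1 over siNegative (95% counting interval 0.69 to 1.21), 0.63 for ASO-SREBF1-S1 over ASO-Neg (0.42 to 0.86) and 0.65 for ASO-SREBF1-S4 over ASO-Neg (0.40 to 0.91). The oligonucleotides did not differ from each other beyond counting error, at -0.02 for S1 over S4 (-0.20 to 0.17). The test of the siRNA effect against the oligonucleotide effect, each over its own negative reagent, gave a difference of 0.31 (SE 0.289, 95% interval -0.39 to 1.02, edgeR adjusted p = 1). That fit has 1 residual degree of freedom, and 0 of 16242 genes passed it with edgeR (0%), 1.34% at an unadjusted p under 0.05, and 1 gene with DESeq2.

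Such single-library intervals exclude 0 for many genes of at least 10 CPM in 1 of the libraries: 40.3% for siSREBF1 over siNegative, 47.8% with ASO-SREBF1-S1 and 45.4% with ASO-SREBF1-S4 over ASO-Neg, 57.4% for S1 over S4, 24.7% for siNegative over mock and 30.6% for ASO-Neg over mock. No member reached a difference of 1 on the log2 scale at that level. In the same order of contrasts 0.517%, 0.481%, 0.7%, 1.08%, 0.0102% and 0.0921% of genes did.

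The non-targeting reagents also stood above mock. For ABCA1 the log2 ratio was 0.55 (0.21 to 0.92) for siNegative over mock and 0.74 (0.39 to 1.11) for ASO-Neg over mock, about as large as the 2 matched oligonucleotide effects. Mock lowest and every targeting library above every control was an order, chosen after its values were seen, that 552 of the 15123 genes met, 3.65%. With reagent chemistry as a term in the fit, the log2 ratio of targeting to control was 0.77 (edgeR adjusted p = 0.513).

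ABCG1 (ENSG00000160179, chr21:42199689-42297244, plus strand), which loads cholesterol onto mature high-density lipoprotein, was too low to compare. It had 12 counts (0.8956 CPM) after siSREBF1, 9 (0.1867 CPM) after ASO-SREBF1-S1 and 18 (1.108 CPM) after ASO-SREBF1-S4, against 3 (0.2354 CPM) after mock, 9 (0.4558 CPM) after siNegative and 6 (0.3532 CPM) after ASO-Neg. Targeting libraries held both the highest and the lowest level. It did not pass the filter of the main comparison. The filter of the oligonucleotide comparison, which holds siSREBF1 as a lone library, let ABCG1 in. That entry rested on its highest levels, in ASO-SREBF1-S4 and siSREBF1, both targeting libraries. Its log2 ratio there, 0.48 (SE 0.777), is therefore given as a value and not as a test of a difference.

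**Figure D2:**
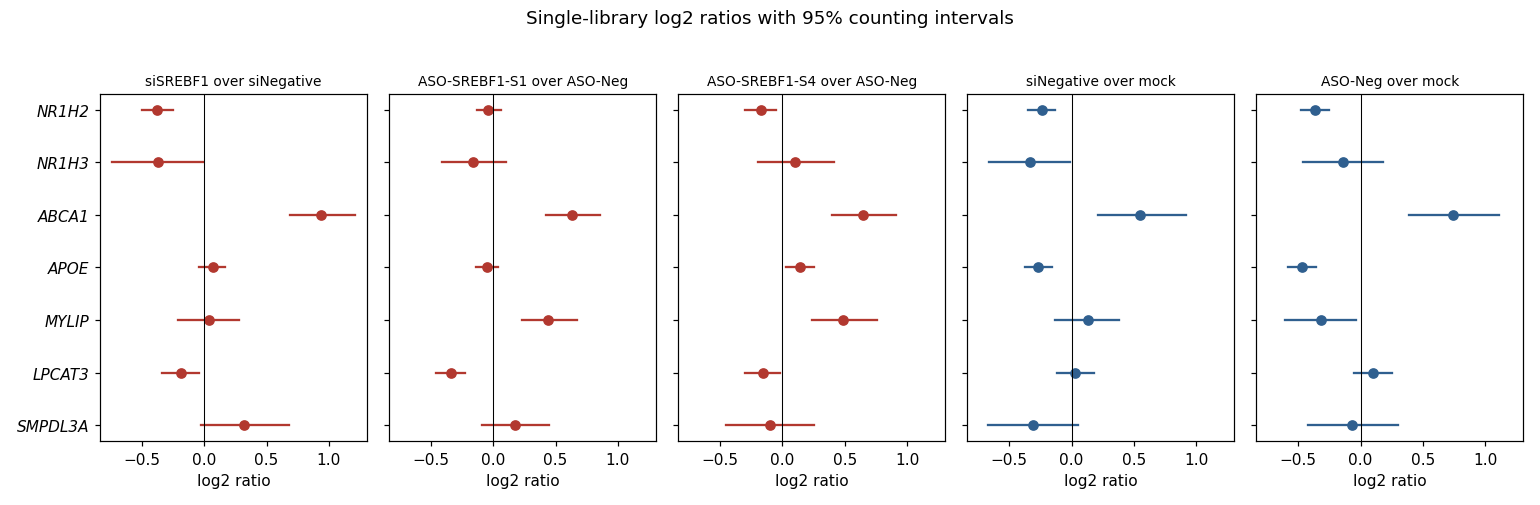
Log2 ratio (linear axis) of 1 library over 1 library for 7 of the genes, with 95% counting intervals as bars and no estimate of the spread between cultures. ABCG1, at 3 to 18 counts a library, is not drawn. Red panels set each SREBF1 reagent over its own negative reagent, and blue panels set each negative reagent over mock: ABCA1 lies right of 0 in all 5, at 0.55 to 0.94.

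APOE (ENSG00000130203, chr19:44905791-44909393, plus strand), the carrier that takes up exported cholesterol and binds lipoprotein receptors, did not separate the sides. It stood at 90.68 CPM after siSREBF1, 72.68 after ASO-SREBF1-S1 and 82.84 after ASO-SREBF1-S4, against 104.4 after mock, 86.61 after siNegative and 75.35 after ASO-Neg. Mock was highest and ASO-SREBF1-S1 lowest. The log2 ratio was -0.12 (SE 0.124, edgeR adjusted p = 0.793) and turned to 0.01 without mock. The non-targeting reagents had lower APOE than mock, with log2 ratios of -0.27 (-0.37 to -0.16) for siNegative and -0.47 (-0.58 to -0.36) for ASO-Neg. Over their own negative reagents the SREBF1 reagents gave 0.07 (-0.04 to 0.17) for siSREBF1, -0.05 (-0.14 to 0.04) for ASO-SREBF1-S1 and 0.14 (0.03 to 0.25) for ASO-SREBF1-S4. An annotated gene without a symbol, ENSG00000280087, overlaps exons of APOE on the same strand and had 5 to 17 counts a library. Counting by strand does not separate them, and the effect on the APOE counts was not tested.

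MYLIP (ENSG00000007944, chr6:16129086-16148248, plus strand) encodes IDOL, a ubiquitin ligase that lowers the uptake of lipoprotein cholesterol. It stood at 17.91 CPM after siSREBF1, 17.38 after ASO-SREBF1-S1 and 18.03 after ASO-SREBF1-S4, against 16.01 after mock, 17.47 after siNegative and 12.78 after ASO-Neg. ASO-Neg was lowest, beyond counting error, and the other 5 libraries were close together. The log2 ratio was 0.20 (SE 0.123, edgeR adjusted p = 0.621). The matched ratios were 0.04 (-0.21 to 0.28) for siSREBF1, 0.44 (0.23 to 0.67) for ASO-SREBF1-S1 and 0.49 (0.24 to 0.76) for ASO-SREBF1-S4, the oligonucleotides sharing the low ASO-Neg as their control. The test of siRNA against oligonucleotide effects gave a difference of -0.42 (95% interval -1.13 to 0.28, edgeR adjusted p = 1).

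LPCAT3 (ENSG00000111684, chr12:6976185-7018477, minus strand), which puts polyunsaturated fatty acids into membrane phospholipids, was slightly lower in all targeting libraries. It stood at 43.74 CPM after siSREBF1, 41.34 after ASO-SREBF1-S1 and 46.90 after ASO-SREBF1-S4, against 48.89 after mock, 49.89 after siNegative and 52.40 after ASO-Neg. The sides did not overlap, but no step between neighbouring libraries was beyond counting error. The mean was 43.99 ± 2.79 CPM in targeting libraries and 50.39 ± 1.81 CPM in controls (SD, n = 3 each). The log2 ratio was -0.20 (SE 0.0749, 95% interval -0.37 to -0.03, edgeR adjusted p = 0.406). The matched ratios were -0.19 (-0.34 to -0.04) for siSREBF1, -0.34 (-0.46 to -0.23) for ASO-SREBF1-S1 and -0.16 (-0.30 to -0.02) for ASO-SREBF1-S4. The negative reagents were within counting error of mock, at 0.03 (-0.12 to 0.18) for siNegative and 0.10 (-0.05 to 0.25) for ASO-Neg. Exons of LPCAT3 overlap those of EMG1 on the opposite strand, which held 41.5% of the counts at LPCAT3. Counting without strand left 2260 counts of LPCAT3 in place of 5839, and a ratio of -0.17 on the log2 scale. Its unadjusted edgeR p was then 0.13, against 0.0258 in the main comparison. Over the alternatives the unadjusted p lay on both sides of 0.05, from 0.0113 (edgeR without ASO-SREBF1-S4) to that 0.13.

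SMPDL3A (ENSG00000172594, chr6:122789049-122809720, plus strand), a secreted phosphodiesterase induced by LXR in human macrophages, did not separate the sides. It stood at 9.255 CPM after siSREBF1, 9.894 after ASO-SREBF1-S1 and 8.186 after ASO-SREBF1-S4, against 9.182 after mock, 7.395 after siNegative and 8.772 after ASO-Neg. No neighbouring libraries differed beyond counting error, and the log2 ratio was 0.12 (SE 0.135, edgeR adjusted p = 0.800). Its neighbour on the same strand, 4974 bp away, is FABP7, a fatty acid binding protein. FABP7 stood at 26.12, 33.85 and 27.33 CPM in siSREBF1, ASO-SREBF1-S1 and ASO-SREBF1-S4, against 67.41, 58.24 and 65.76 CPM in mock, siNegative and ASO-Neg. FABP7 fell by 1.12 on the log2 scale (SE 0.11, edgeR adjusted p = 0.0142). That call was lost without mock (adjusted p = 0.163), without ASO-Neg (0.188), with chemistry as a term (0.188) and in the oligonucleotide libraries with mock alone (0.128), at log2 ratios of -1.12 to -1.09.

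The members' patterns over the 6 libraries were compared by the root mean square difference of their log2(CPM + 0.5), each centred on its own mean. NR1H2 and LPCAT3 were the closest pair at 0.179, and NR1H2 and ABCA1 the farthest at 0.72. Leaving aside ABCG1, with its 3 to 18 counts, the member nearest to ABCA1 was MYLIP at 0.481. The measure is not scaled by how far a gene varies, so genes that vary little lie close together whatever their pattern. The highest library was 1.41 times the lowest for MYLIP and 2.84 times for ABCA1.

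By the same measure the 5 genes most like ABCA1 among 11042 genes with a mean of at least 5 CPM were SERPINB8 at 0.125, AP3B2 at 0.17, MGLL at 0.177, SPRED3 at 0.203 and ANK3 at 0.205. SERPINB8, a serine protease inhibitor, stood at 31.42, 22.86 and 24.50 CPM in siSREBF1, ASO-SREBF1-S1 and ASO-SREBF1-S4, against 11.22, 15.55 and 16.66 CPM in mock, siNegative and ASO-Neg. MGLL, the lipase that splits monoglycerides, stood at 27.61, 21.78 and 26.28 CPM in the same targeting libraries, against 11.30, 11.70 and 18.25 CPM in the same controls. AP3B2, a subunit of a vesicle coat adaptor, was the only one of the 5 to pass the test, at 0.84 on the log2 scale (SE 0.108, edgeR adjusted p = 0.0442). That call was lost when any 1 library other than ASO-SREBF1-S1 was left out, at adjusted p of 0.0646 without siSREBF1 to 0.399 without siNegative, and with limma-voom (0.0592), chemistry as a term (0.513) and the oligonucleotide libraries with mock alone (0.482). In these fits its log2 ratio was 0.77 to 0.89. Of these 5 genes, 3 remained among the closest with a minimum of 1 CPM and 1, SERPINB8, with a minimum of 20 CPM.

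**Figure D3:**
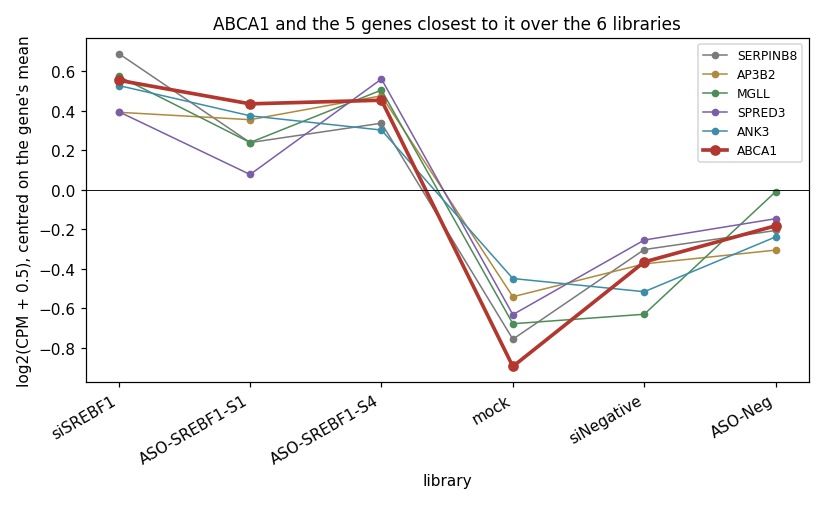
Log2(CPM + 0.5) of ABCA1 (thick red line) and of SERPINB8, AP3B2, MGLL, SPRED3 and ANK3 in the 6 libraries, each centred on its own mean, targeting libraries left of controls. The genes were chosen for this likeness, and all 6 lines lie above 0 in the targeting libraries and at or below 0 in the controls.

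Beyond the members, 21 other reported LXR targets were listed, and 14 passed the filter on low counts. None passed the test and their median log2 ratio was -0.02, against 0.006 for all genes. The smallest p was that of SCARB1, the receptor for high-density lipoprotein, at 684.7, 767.9 and 789.3 CPM in siSREBF1, ASO-SREBF1-S1 and ASO-SREBF1-S4 and 997.4, 955.1 and 945.4 CPM in mock, siNegative and ASO-Neg. Its log2 ratio was -0.37 (SE 0.0792, edgeR adjusted p = 0.184). SCARB1 passed with DESeq2 (adjusted p = 0.00342) and edgeR without the filter on low counts (0.0153), settings that passed more of all genes, as given for ABCA1. It was 1 of the 14 whose sides did not overlap, and no other was, against 17.4% of all genes. VEGFA, the endothelial growth factor, had 0.23 (adjusted p = 0.491), LPL, lipoprotein lipase, -0.18 (0.613) and MERTK, a receptor for the uptake of dying cells, 0.47 (0.655). Without ASO-SREBF1-S1 the value for MERTK was -0.06.

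Of 8 lipogenic genes that LXR and SREBP1 both drive, 2 fell past the test, where 0.0595% of all genes passed it: SREBF1, whose fall is the targeting itself, and SCD. All 8, SREBF1 among them, had log2 ratios below 0, sides that did not overlap, against 17.4% of all genes, and an unadjusted p under 0.05, against 10.2%. Their median log2 ratio was -0.43, and that of the 7 without SREBF1 was that of ACACA, -0.41. SCD, the desaturase that makes oleate, stood at 1957, 2343 and 2320 CPM in siSREBF1, ASO-SREBF1-S1 and ASO-SREBF1-S4, against 4290, 3921 and 4131 CPM in mock, siNegative and ASO-Neg, and fell by 0.90 (SE 0.0964, edgeR adjusted p = 0.0224). That call was lost without any 1 of the 3 control libraries, at adjusted p of 0.156 to 0.238, with chemistry as a term, at 0.491, and in the oligonucleotide libraries with mock alone, at 0.482, while the log2 ratio in these fits was -0.94 to -0.85. FASN, fatty acid synthase, had -0.76 (edgeR adjusted p = 0.0738) and ACACA, which makes malonyl-CoA, had -0.41 (0.123). Both passed with DESeq2 (adjusted p = 2.92e-08 for FASN and 0.00159 for ACACA) and with edgeR without the filter (4.27e-11 and 0.00265), and FASN also passed without ASO-SREBF1-S1 (0.0096). These settings passed more of all genes than the main fit, as given for ABCA1.

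RXRA, RXRB and RXRG, the partners of LXR, had log2 ratios of 0.00, 0.00 and 0.01, with adjusted p of 0.991 or more. RXRG, the RXR restricted to a few tissues, stood at 83.96 to 108 CPM in targeting libraries and 92.43 to 95.32 CPM in controls. None of 14 coregulators passed the test, and their median log2 ratio was 0.05. NRIP1 (RIP140), a corepressor that also supports LXR at lipogenic genes, had the largest value at 0.38 (SE 0.103, edgeR adjusted p = 0.271). It stood at 92.17, 71.16 and 86.17 CPM in siSREBF1, ASO-SREBF1-S1 and ASO-SREBF1-S4, against 58.46, 66.04 and 66.35 CPM in mock, siNegative and ASO-Neg. The sides did not overlap for 3 of the 14 coregulators, NRIP1, NCOR1 and CREBBP, against 17.4% of all genes. NRIP1 passed with edgeR without the filter (adjusted p = 0.00857) and without ASO-SREBF1-S1 (0.034, at a log2 ratio of 0.48), settings that passed more of all genes. The corepressor NCOR1 had 0.12 (adjusted p = 0.563), and the acetyltransferase CREBBP had 0.12 (0.565).

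Of 12 genes that make, remove or bind sterol ligands, 7 passed the filter and none passed the test. All 7 had log2 ratios below 0, with a median of -0.21. HSD3B7, an enzyme of bile acid synthesis that also clears oxysterols, stood at 7.836, 7.239 and 7.878 CPM in siSREBF1, ASO-SREBF1-S1 and ASO-SREBF1-S4, against 12.48, 10.38 and 9.360 CPM in mock, siNegative and ASO-Neg. Its log2 ratio was -0.49 (SE 0.136, edgeR adjusted p = 0.281). The sterol synthesis enzymes EBP and DHCR7 had -0.32 (adjusted p = 0.486) and -0.21 (0.459), and CYP27A1, which makes 27-hydroxycholesterol, had -0.19 (0.488).

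Among the 6 receptors and partners of apolipoprotein E and MYLIP, none passed the test and the median was -0.11. On the log2 scale LRP8, an APOE receptor, had -0.17 (adjusted p = 0.425), SORL1 had 0.34 (0.603) and LRP1, the large scavenging receptor proposed to carry the APOE signal in melanoma cells, had 0.06 (0.833).

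**Figure D4:**
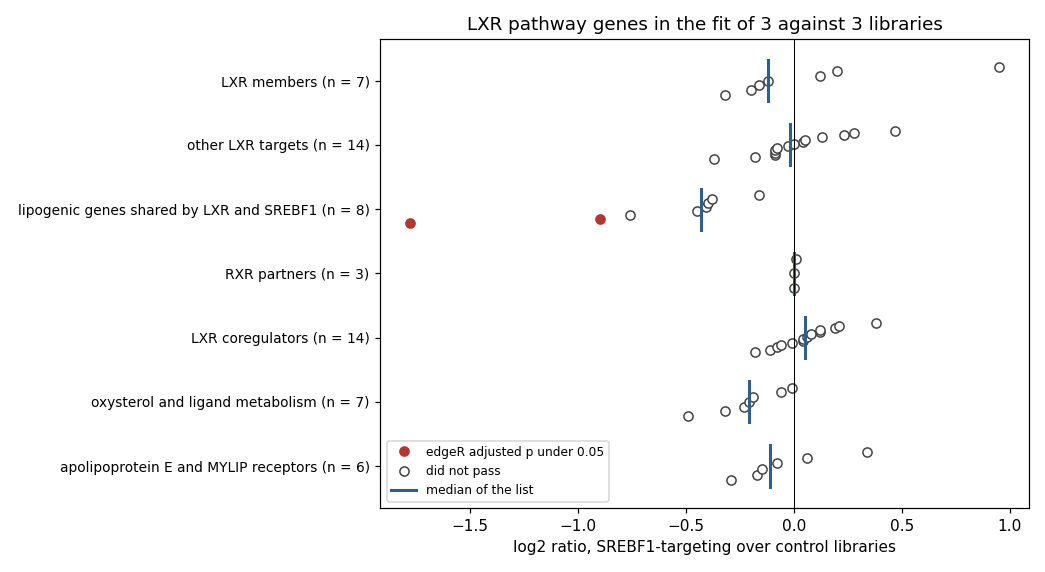
Log2 ratio of targeting over control libraries (linear axis) for each tested gene of the 8 members and the 6 related lists, with the list's median as a blue bar. Filled red points passed the edgeR test over all genes: SREBF1 and SCD, both in the lipogenic list, whose 8 genes all lie left of 0. The member farthest right is ABCA1 at 0.95.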

How the data were processed

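The authors deposited raw gene counts for every lane, in columns for unstranded, forward and reverse counting. Per the submitters' processing notes, they used FastQC and STAR 2.6.1a with GRCh38. Which annotation served for counting is not given in the sources used here. The reverse-strand column was used, since the other strand held 6.47% to 7.79% of the counts of both. Lines naming no gene (18.18% to 19.35% of read pairs) were left out. Lanes of 1 library agreed within sampling noise (chi-square over degrees of freedom 1.00 to 1.07, against 2.03 to 8.69 between libraries) and were summed. Coordinates and exon lengths came from GENCODE 44.

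Tests used edgeR 4.0.16 (R 4.3.3): TMM, filterByExpr, quasi-likelihood F test, 2-sided, Benjamini-Hochberg adjustment at 0.05. DESeq2 1.42.0 and limma 3.58.1 were alternatives, with other filters, scaling, columns and left-out libraries. The fits were also run on simulated counts with known changes. Those counts had the same dispersion for every gene and no reagent effect, so they do not show how the fits perform on these libraries. Single-library ratios used a prior count of 2 and have no test, since a group is 1 library. Read pairs carried no molecular identifiers, so intervals and floors cover counting error only. Members, lists and motifs were chosen with earlier results of these data known. From each list, members past the threshold and up to 4 with the smallest p are named, except that some are not reported here. Neighbours were named where they bear on a member's counts, except FABP7, which does not overlap SMPDL3A. FABP7 was the only coding neighbour of a member to pass the test in the main comparison.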

Additional observations from a re-analysis of the deposited data

How the results depend on the processing

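The 4 files of a group were lanes of 1 library. No paired analysis was possible because the replicate numbers mark lanes, which were summed, and the fit with the number as a block was not run. Members passing the test numbered 0 in the main comparison, and 1, ABCA1, with no filter on low counts, with DESeq2 and without ASO-SREBF1-S1, so 0 to 1 over the left-out libraries. In the oligonucleotide comparison 0 became 1, again ABCA1, with no filter, with DESeq2 and without either SREBF1 oligonucleotide. Leaving out 1 of these leaves 1 library in its class, assumed to vary like the others. Over all genes, the main 9 became 509 with no filter, 170 with DESeq2, 5 with limma-voom, 0 with reagent chemistry as a term, 1 in the oligonucleotide libraries with mock, and 1 to 103 over left-out libraries. The 7 of the oligonucleotide comparison became 563 with no filter, 177 with DESeq2, 3 with at least 1 CPM in 3 libraries, and 1 to 955 over left-out libraries. The 24 between siSREBF1 and the oligonucleotides became 380 with no filter, 127 with DESeq2, and 2 to 890 over left-out libraries. The 0 of the test between siRNA and oligonucleotide effects became 5 with no filter and 1 with DESeq2, and with a library left out it could not be fitted.

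Some log2 ratios near 0 changed sign. In the main comparison APOE (-0.12) was 0.05 with chemistry as a term and -0.22 to 0.01 over left-out libraries. RXRA (0.00) was 0.00 with DESeq2 scaling, the unstranded column and DESeq2, -0.02 with limma-voom, and -0.04 to 0.07 over left-out libraries. RXRB was 0.01 with chemistry, 0.05 in the oligonucleotide libraries with mock and -0.06 to 0.05 over left-out libraries. RXRG was -0.02 with chemistry and -0.10 to 0.08 over left-out libraries, LRP1 -0.01 with chemistry and -0.01 to 0.10 over left-out libraries, and MERTK -0.06 (without ASO-SREBF1-S1) to 0.75. In the oligonucleotide comparison ABCG1 (0.48) was -0.18 with limma-voom and -0.93 to 1.59 over left-out libraries, NR1H3 (-0.02) was -0.14 to 0.13 and SMPDL3A (0.12) was -0.04 to 0.24. Between siSREBF1 and the oligonucleotides SMPDL3A (0.02) was -0.01 with the unstranded column and with limma-voom. Over left-out libraries it was -0.10 to 0.17, ABCG1 (0.82) was -0.31 to 2.22, MYLIP (0.02) was -0.01 to 0.04 and LPCAT3 (-0.01) was -0.10 to 0.08. ABCA1, NR1H2 and LPCAT3 kept their sign under all 14 alternatives of the main comparison, NR1H2 at -0.40 to -0.22 and LPCAT3 at -0.25 to -0.15. No member passed the size rule (at least 1 on the log2 scale, 10 CPM) between single libraries. For siSREBF1 over siNegative 1 did in lane 1 alone (ABCA1) and 2 in lane 2 alone (ABCA1 and SMPDL3A). From 1 CPM, ABCG1 did, 1 member, for ASO-SREBF1-S4 over ASO-Neg and for S1 over S4. It reached that level in ASO-SREBF1-S4 alone. Allowing 1 mismatch left 0 members with a DR4 match. The cause of these changes was not tested. Depth limits ABCG1 most, at 3 to 18 counts a library.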
